A study of Rattus norvegicus with 24 samples.

Results

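The potassium channel genes of the rat nucleus accumbens (NAc) were taken as every protein-coding gene whose symbol begins with Kcn, leaving out the inward rectifiers, whose symbols begin with Kcnj. This gave 78 genes of the 32545 in the table, under 77 symbols because Kcnk6 is listed under 2 gene identifiers. Kcna3 and Kcnd2 were not analysed here. The FPKM (reads scaled to gene length and to the size of the library) of each gene was available in 24 libraries, 4 rats in each of 6 groups. All rats were adult male Sprague Dawley rats, 8 weeks old on arrival.

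In the injection experiment, rats were given 5 intermittent intraperitoneal injections of lipopolysaccharide (LPS, a bacterial wall component that provokes inflammation) at 250 µg/kg, or saline. Heroin in doses rising from 1 to 5 mg/kg, or saline, was then injected on 5 days. Each of the 4 groups is named for its first and then its second treatment, so that LPS-Heroin rats had both agents, LPS-Saline and Saline-Heroin rats had 1 of them, and Saline-Saline rats had neither. In the self-administration (SA) experiment, rats with a jugular vein catheter took heroin at 0.075 mg/kg per infusion (Heroin-SA) or saline (Saline-SA) for 6 hours per day in 10 sessions. SA rats were killed directly after the last session and injected rats after a brief locomotor test that followed the last injection, and all SA rats had undergone surgery, so the experiments differ in more than the route of heroin.

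Potassium channels carry the outward current that repolarises neurons and sets how readily they fire. Most Kcn genes encode pore-forming subunits: voltage-gated ones (Kcna to Kcnd, Kcnh, Kcnq), silent ones that join Kcnb subunits and modify them (Kcnf, Kcng, Kcns, Kcnv), calcium- or sodium-activated ones (Kcnma, Kcnn, Kcnt) and the tandem-pore leak channels (Kcnk). The rest encode helper proteins (Kcnab, Kcnip, Kcne, Kcnmb, Kcnrg). In the NAc, the medium spiny neurons rest at a very negative potential and fire only under strong excitatory drive, and slowly inactivating and inwardly rectifying potassium currents shape this behaviour.

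Of the 78 genes, 63 had a mean of at least 0.5 FPKM over the 24 libraries and were tested, among 15118 genes of the whole table that passed the same limit. Just above it lay Kcnk15 at 0.630, Kcnk7 at 0.625 and Kcnn4 at 0.571 FPKM, and just below it Kcnk16 at 0.447, Kcnk5 at 0.317 and Kcnh8 at 0.222 FPKM. The 15 untested genes were Kcnk16, Kcnk5, Kcnh8, Kcnmb1, Kcne3, Kcna7, Kcne1, Kcnq1, Kcnv2, Kcnk18, both entries of Kcnk6, Kcnmb3, Kcnu1 and Kcna10. Kcna10 reached no more than 1 read in any library. Kcnh8, an ELK-type channel gene, had 1 to 33 reads per library, with means of 0.333 ± 0.18 FPKM in Saline-Saline and 0.152 ± 0.048 FPKM in LPS-Heroin (SD, n = 4), and was not tested.

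The libraries held 12312878 to 18850240 reads on genes. Mitochondrial genes took 6.82% to 9.10% of these reads in the injection experiment and 10.0% to 15.9% in the SA experiment. All 12 markers of medium spiny neurons were detected, at a summed 1279 to 3358 FPKM per library. Markers of cortical glutamatergic neurons (9 of 10 found) varied far more, from a summed 63.3 to 516 FPKM, and fell below 200 FPKM in 6 libraries: Saline-Saline replicates 1 and 3, LPS-Saline replicate 3, Saline-Heroin replicate 2, Saline-SA replicate 3 and Heroin-SA replicate 4. Saline-Saline replicate 1 also carried choroid plexus markers at 333 FPKM, against at most 31.5 FPKM in every other library. In whole tissue, fewer cells of a type and less RNA per cell cannot be told apart.

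The family that supplied the most RNA was Kcnab, the cytoplasmic partners of Kcna channels, with 16.8% of the summed 883 FPKM of all members. Kcnab1 led the members with 75.8 FPKM on average, and Kcnab2 followed with 63.5 FPKM. Kcnmb4, the neuronal partner of the large-conductance calcium-activated channel, reached 54.3 FPKM, which was above the 10.0 FPKM of that channel's own pore gene Kcnma1. The partners of Kcnd channels were led by Kcnip3 at 44.6 FPKM, and Kcnt1, a sodium-activated channel gene, stood at 37.4 FPKM. FPKM is scaled by annotated gene length, so setting these levels side by side relies on each gene's annotation being complete, which was not tested. Kcnab1, Kcnab2, Kcnma1, Kcnip4 and Kcnrg each have an annotated gene on the opposite strand, which makes their levels uncertain.

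Among the voltage-gated families, Kcna6 (28.2 FPKM) and Kcnd3 (11.0 FPKM) were the highest members of the Kcna and Kcnd families by mean FPKM. Among the EAG, ERG and ELK genes of the Kcnh family the highest was Kcnh3, at 23.2 FPKM. The silent subunits were led by Kcnf1 at 33.8 FPKM, with Kcng1 at 13.6, Kcnv1 at 13.2 and Kcns2 at 7.37 FPKM. Of the 15 leak channel genes, 10 were tested, and Kcnk1 was highest at 26.0 FPKM. The small-conductance calcium-activated family was led by Kcnn2 (9.70 FPKM) and the single-pass Kcne partners by Kcne5 (8.20 FPKM). Kcnrg, whose protein restrains channel assembly, stood at 1.96 FPKM. Kcnu1, a channel gene of sperm, averaged 0.0015 FPKM.

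**Figure D1:**
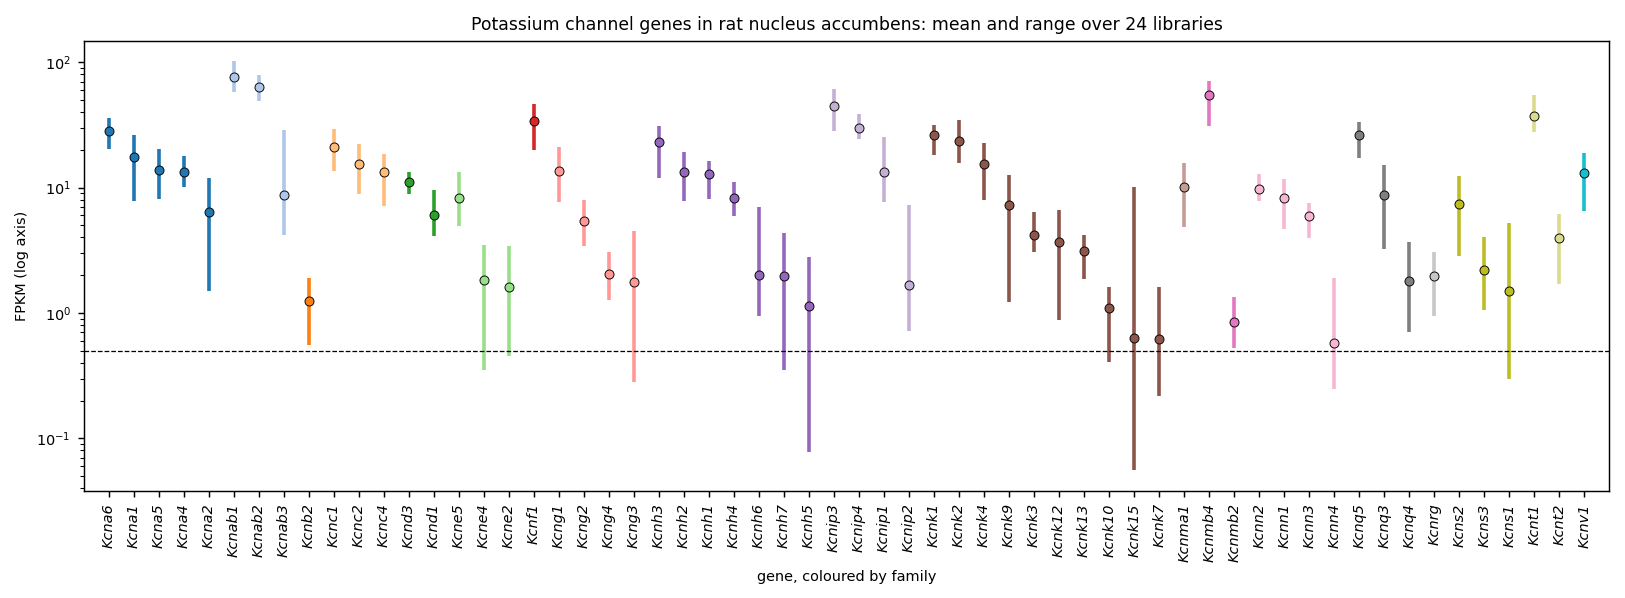
Mean FPKM over 24 libraries (circle, log axis) and the range from lowest to highest library (bar) for 60 of the tested potassium channel genes, coloured by family; the dashed line marks 0.5 FPKM. Kcnab1 is highest at 75.8 FPKM, and the bar of Kcnk15 reaches 10.1 FPKM because of 1 library.

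The first question was whether an earlier LPS challenge, heroin, or both left a mark on these genes. Genes were called where the unadjusted p of limma was at most 0.05 and the change was at least 1.3-fold (called genes are those the text describes as higher or lower). Fold changes are on the scale of log2(FPKM + 0.1), which understates the change of low genes. Across all 8 comparisons, no gene of the table had an adjusted p (limma, Benjamini-Hochberg over 15118 genes) under 0.05, so every call is at the unadjusted level. In at least 1 of the 6 comparisons between groups 23 members were called, and 40 were not called in any. This count over 6 comparisons was not made for all genes, so it has no background to be read against. The share of all genes is given below for each comparison. The comparisons of LPS-Saline, Saline-Heroin and LPS-Heroin with Saline-Saline share the same 4 control rats, so their values are given side by side and are not independent.

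**Figure D2:**
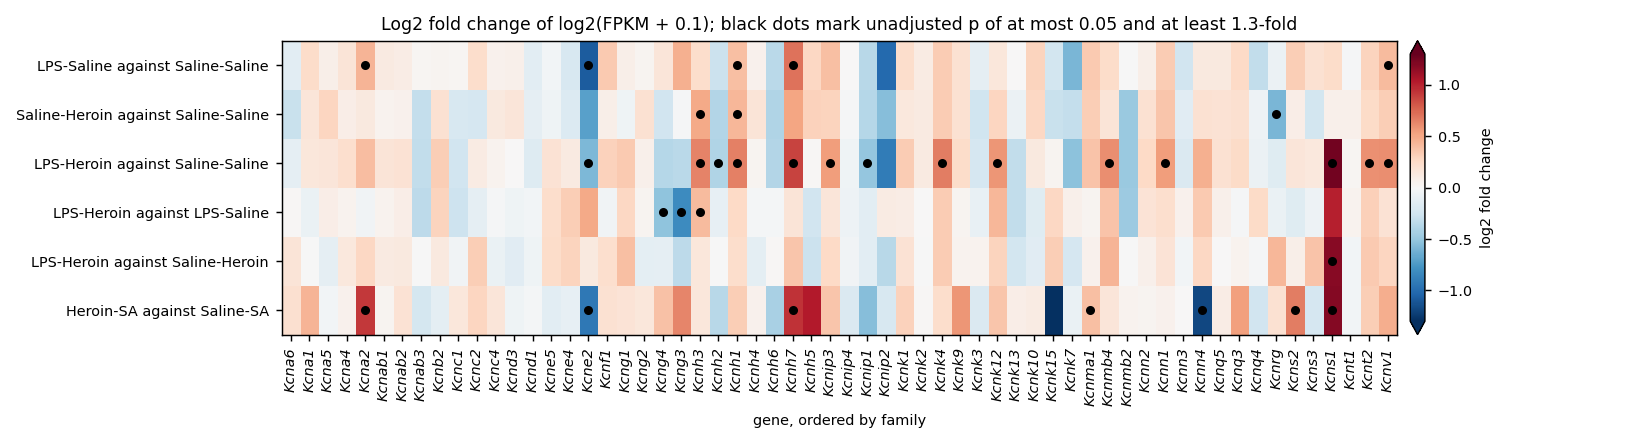
Log2 fold change of 60 of the tested genes, ordered by family (columns), in the 6 comparisons between groups (rows), from blue (lower) to red (higher); black dots mark genes called at unadjusted p of at most 0.05 and at least 1.3-fold. The row of LPS-Heroin against Saline-Saline carries 14 dots, the most of the 6 rows.

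Compared to Saline-Saline, the combined LPS-Heroin treatment had the most called members: 12 higher and 3 lower, 15 of 63 or 23.8%. Over all genes tested, 5.46% were called (2.98% higher and 2.47% lower). Among the higher genes were the Kcnh genes Kcnh1, Kcnh3 and Kcnh7, the silent subunits Kcnv1 and Kcns1, the leak channel genes Kcnk4 and Kcnk12, the calcium- and sodium-activated Kcnn1 and Kcnt2, and the helper genes Kcnip3 and Kcnmb4. The lower genes were Kcnh2, Kcnip1 and Kcne2. The median log2 fold change of the 63 members was 0.13, against 0.00 over all genes tested, and 43 of 63 were above 0. At an unadjusted p of at most 0.05 with any fold, 18 members passed, against 11.3% of all genes.

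Kcnh1 (ENSRNOG00000003841, rn6 chr13:110920737-111232269, plus strand), which encodes the EAG channel of neurons, had the smallest p. Its FPKM was 8.10, 9.95, 10.2 and 10.4 in the Saline-Saline rats and 16.4, 16.3, 13.4 and 14.9 in the LPS-Heroin rats. The 2 groups did not overlap. The log2 fold change was 0.66 (SE 0.10, 95% interval 0.42 to 0.89; limma, adjusted p = 0.157).

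Kcnh3, an ELK channel gene of the forebrain, read 11.9, 16.1, 20.8 and 17.3 FPKM in Saline-Saline and 25.7, 26.0, 25.6 and 24.3 FPKM in LPS-Heroin. The LPS-Heroin rats lay within a narrow band above all controls, with a log2 fold change of 0.64 (SE 0.15; limma, adjusted p = 0.199). Kcnh3 shares its strand with the overlapping genes Spats2 and U1, so its reads are uncertain. The ERG channel gene Kcnh7, which holds a SNORA17 copy on its own strand, was at 1.85, 1.86, 0.956 and 1.65 FPKM in Saline-Saline and 3.52, 4.34, 2.10 and 2.16 FPKM in LPS-Heroin, again without overlap, and its log2 fold change was 0.88 (SE 0.30; limma, adjusted p = 0.319). Another ERG gene, Kcnh2, went the opposite way, from 13.0 to 17.5 FPKM in Saline-Saline to 10.3 to 14.2 FPKM in LPS-Heroin. Its groups overlapped, and the log2 fold change was -0.39 (SE 0.13; limma, adjusted p = 0.324). Of the 7 tested Kcnh genes, 3 were thus called higher and 1 lower.

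The silent subunit gene Kcnv1 read 8.97, 13.6, 11.1 and 10.8 FPKM in Saline-Saline and 16.6, 18.7, 16.7 and 15.6 FPKM in LPS-Heroin. These groups did not overlap (log2 fold change 0.61, SE 0.12; limma, adjusted p = 0.176). Kcns1, another silent subunit gene, was low and scattered, at 0.360 to 1.93 FPKM in Saline-Saline and 1.46 to 5.18 FPKM in LPS-Heroin, where replicate 3 was the highest of all 24 libraries. Its log2 fold change was 1.25 (SE 0.50; limma, adjusted p = 0.400). The remaining silent subunits Kcnf1, Kcng1 to Kcng4, Kcns2 and Kcns3 were not called.

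The mechanosensitive leak channel gene Kcnk4 read 10.9, 13.7, 10.9 and 17.3 FPKM in Saline-Saline and 22.9, 22.8, 19.5 and 17.6 FPKM in LPS-Heroin, the lowest LPS-Heroin rat lying just above the highest control. The log2 fold change was 0.66 (SE 0.16; limma, adjusted p = 0.203). Kcnk12, a leak channel subunit that is silent on its own in cells, overlapped between groups: 2.05 to 4.47 FPKM in Saline-Saline and 4.03 to 5.38 FPKM in LPS-Heroin (log2 fold change 0.58, SE 0.22; limma, adjusted p = 0.381). Kcnk1, the highest leak channel gene, was at 23.2 ± 1.3 and 29.1 ± 1.4 FPKM (SD, n = 4) with no overlap, but its log2 fold change of 0.33 (SE 0.06; limma, adjusted p = 0.157) was under the limit of 1.3-fold. Of 10 tested Kcnk genes, 2 were called, both higher.

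Kcnn1, a small-conductance calcium-activated channel gene, was at 4.71, 7.18, 5.50 and 7.75 FPKM in Saline-Saline and 10.3, 9.25, 8.32 and 8.38 FPKM in LPS-Heroin. The log2 fold change was 0.54 (SE 0.16; limma, adjusted p = 0.265). The sodium-activated Kcnt2 read 3.91, 4.06, 2.33 and 4.23 FPKM against 5.76, 5.10, 4.87 and 5.86 FPKM, a log2 fold change of 0.59 (SE 0.19; limma, adjusted p = 0.299). Both genes separated the 2 groups. The related Kcnt1 was not called, at 32.2 ± 4.9 and 32.7 ± 3.7 FPKM (SD, n = 4).

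Among the helper genes, Kcnip3, a calcium-binding partner of Kcnd channels, was at 33.2, 43.4, 28.1 and 43.9 FPKM in Saline-Saline and at 60.9, 57.5, 47.3 and 49.1 FPKM in LPS-Heroin. The groups did not overlap (log2 fold change 0.55, SE 0.15; limma, adjusted p = 0.237). Kcnip1, of the same family, was lower, at 15.3, 13.1, 14.6 and 17.4 FPKM against 10.8, 8.55, 10.3 and 13.1 FPKM (log2 fold change -0.50, SE 0.13; limma, adjusted p = 0.235). These groups met near 13.1 FPKM without overlap. Kcnip1 lies across from Kcnmb1 on the other strand, and no source used here says if reads were counted by strand, so its level is uncertain, as is that of Kcnip3, which holds a 7SK copy on its own strand. Kcnmb4, which has AC136025.2 on its other strand, was at 30.7, 68.1, 39.6 and 39.8 FPKM in Saline-Saline and 65.6, 70.5, 60.0 and 64.3 FPKM in LPS-Heroin. Saline-Saline replicate 2 lay within the LPS-Heroin range, and the log2 fold change was 0.61 (SE 0.21; limma, adjusted p = 0.317). Kcne2, a single-pass partner that is abundant in choroid plexus, was at 2.42, 1.88, 1.58 and 1.67 FPKM in Saline-Saline and 1.48, 1.33, 1.03 and 1.04 FPKM in LPS-Heroin (log2 fold change -0.59, SE 0.21; limma, adjusted p = 0.341). Its highest value was in Saline-Saline replicate 1, the library with the most choroid plexus marker RNA. LPS-Heroin replicate 4 had these markers at 31.5 FPKM with Kcne2 at 1.04 FPKM, and Saline-Saline replicate 2 at 0.840 FPKM with Kcne2 at 1.88 FPKM. The part of choroid plexus cells in the result was not tested. Kcne2 kept its call in 5 of the 8 fits that left out 1 library and lost it without Saline-Saline replicate 1, LPS-Heroin replicate 3 or LPS-Heroin replicate 4.

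**Figure D3:**
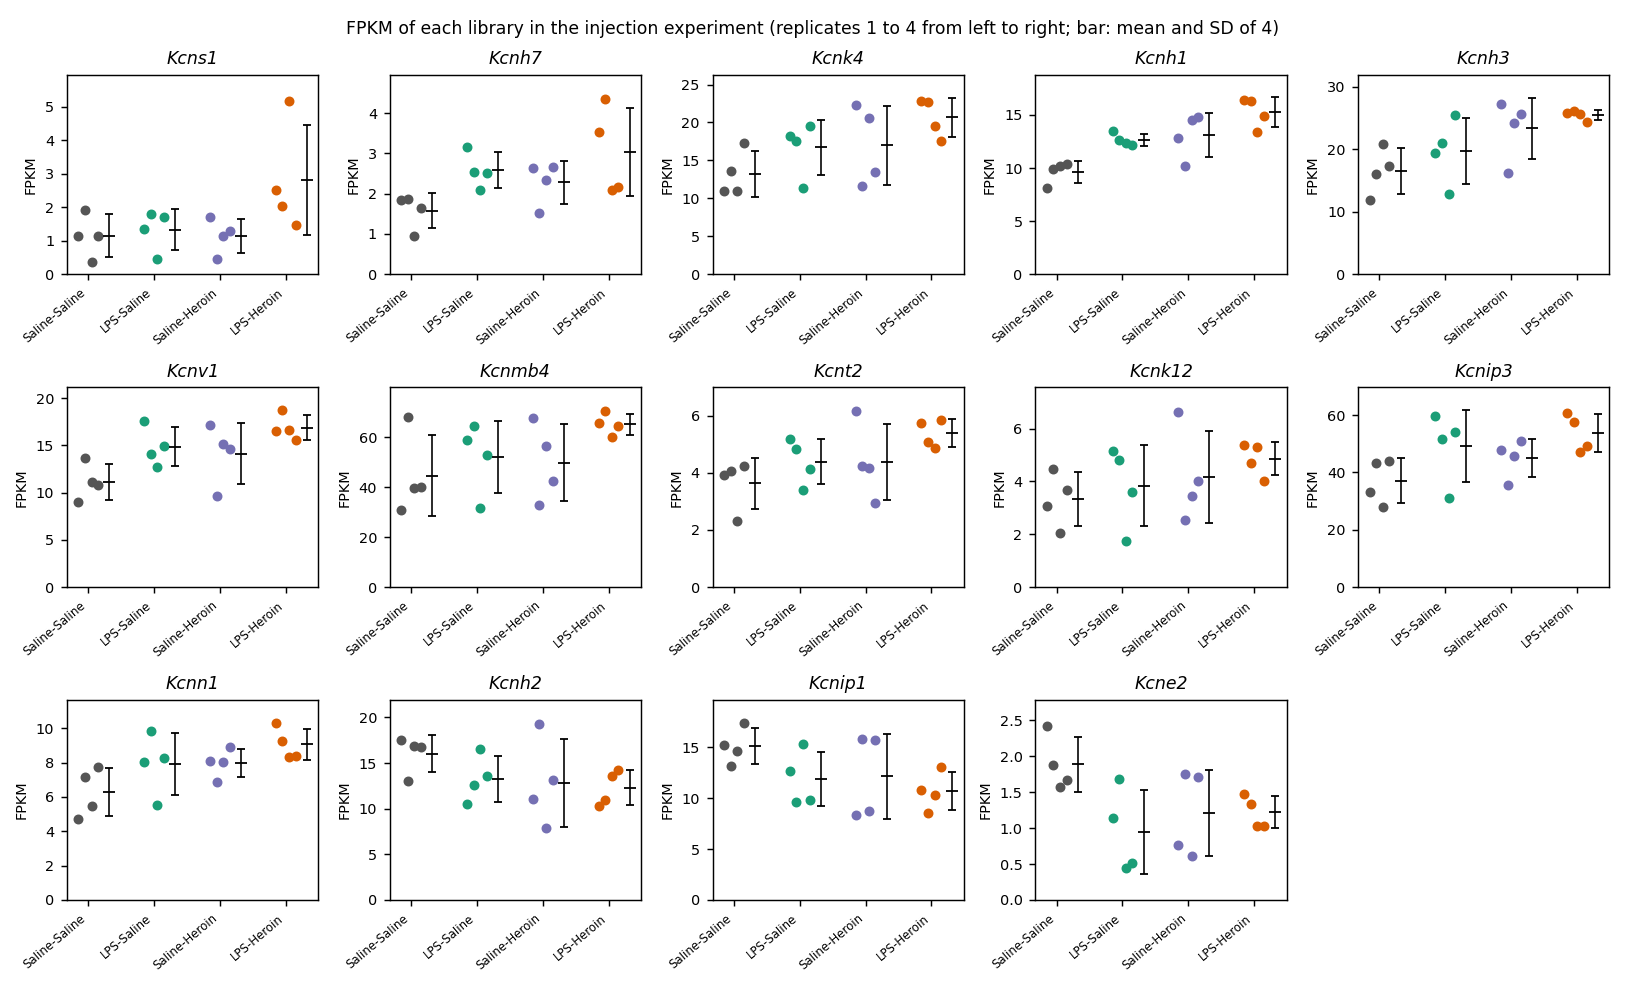
FPKM of each library (points, replicates 1 to 4 from left to right) with the mean and SD of 4 (black bar) in the 4 groups of the injection experiment, for 14 genes called in LPS-Heroin against Saline-Saline, ordered by log2 fold change. Kcnh3 sits between 24.3 and 26.0 FPKM in LPS-Heroin, above every Saline-Saline rat.

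In all, 13 members had LPS-Heroin and Saline-Saline values that did not overlap (20.6%, against 6.86% over all genes tested), 11 of them higher in LPS-Heroin (3.71% of all genes) and 2 lower (3.15%). Of the 15 called genes, 9 kept their call in each of the 8 fits that left out 1 library: Kcnh1, Kcnv1, Kcnh3, Kcnk4, Kcnip1, Kcnip3, Kcnn1, Kcnt2 and Kcnmb4. Kcnh7 lost it without LPS-Heroin replicate 2, and Kcnh2, Kcnk12 and Kcns1 kept it in 3 of the 8 fits. The LPS-Heroin rats also had more cortical marker RNA. Of 9 cortical glutamatergic markers tested, 8 were called higher, with a median log2 fold change of 1.05, and their summed level was 424 to 511 FPKM against 118 to 328 FPKM in Saline-Saline. Of 10 markers of septum and ventral forebrain, 6 were called lower, with a median log2 fold change of -1.02, at 32.8 to 65.4 FPKM against 71.7 to 165 FPKM. Of the interneuron and microglia markers 1 each was called higher, and no marker of medium spiny neurons, choroid plexus, oligodendrocytes, astrocytes, or endothelium and mural cells was called. The part of this tissue makeup in the channel results was not tested.

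Some of the higher genes were low in the same libraries as the cortical markers. In the 6 libraries with a cortical sum under 200 FPKM, Kcnip3 was between 28.1 and 35.5 FPKM, and Kcnk12 between 0.887 and 3.09 FPKM. In the other libraries Kcnip3 was at 35.1 to 60.9 FPKM and Kcnk12 at 2.96 to 6.63 FPKM. When these 6 libraries were left out, an alternative added after the data were seen, LPS-Heroin was compared with the 2 remaining controls. In this fit 7 members were called, against 3.77% of all genes. Cortical sums still did not overlap, at 326 and 328 FPKM in these controls and 424 to 511 FPKM in LPS-Heroin. The part of cortical tissue in the remaining calls was thus not tested. Of the 15 members called in all libraries, 6 remained, among them Kcnh1, Kcnh3, Kcnv1, Kcnk4 and Kcnip1. The log2 fold changes of these 5 were then 0.58, 0.60, 0.47, 0.42 and -0.51, in the same order. Kcnip2 was added, with a log2 fold change of -1.59, where the 2 remaining controls stood at 1.33 and 7.31 FPKM.

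**Figure D4:**
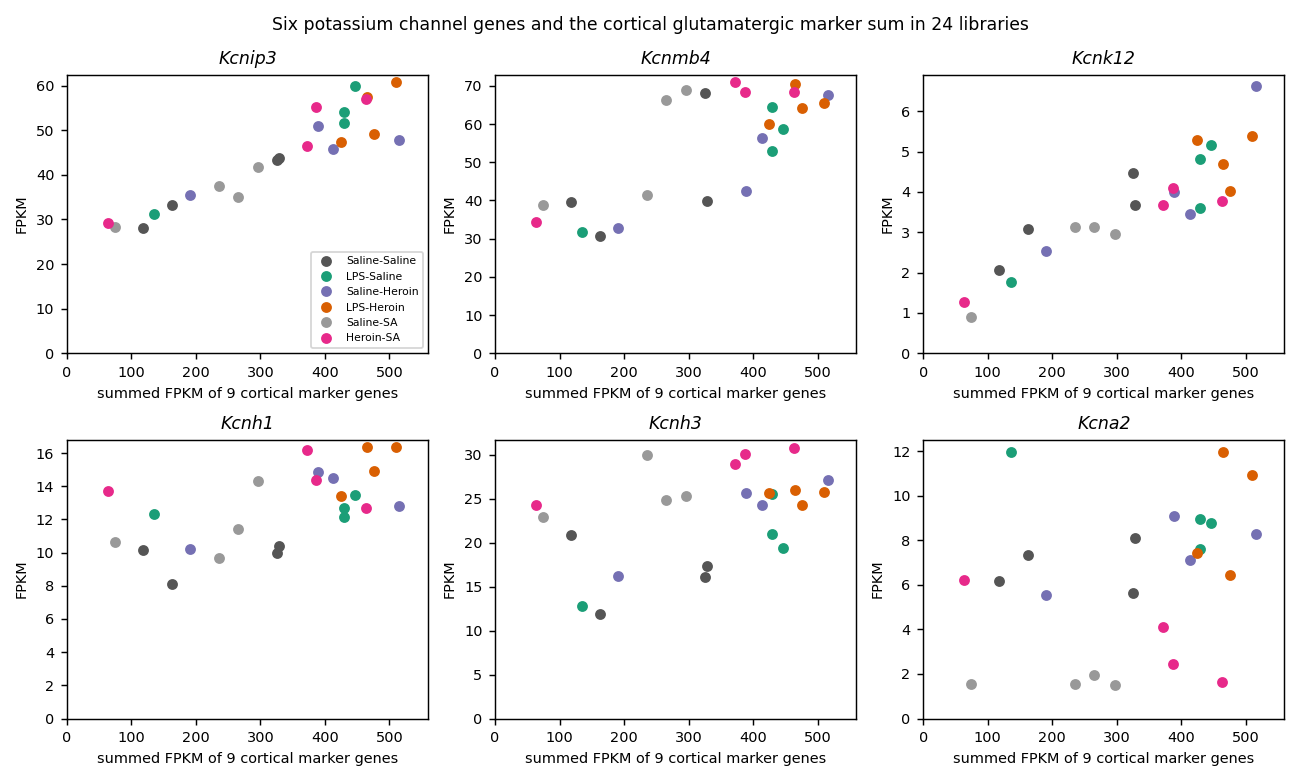
FPKM of 6 potassium channel genes (vertical axes) against the summed FPKM of 9 cortical glutamatergic marker genes (horizontal axes) in 24 libraries, coloured by group. In the 6 libraries with cortical sums under 200 FPKM, Kcnip3 is at no more than 35.5 FPKM and Kcnk12 at no more than 3.09 FPKM.

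The promoters of the called genes were read to show what sequence lies before them. The 39 of 63 tested genes that matched a RefSeq promoter by symbol (GRCr8, 250 bases before to 50 after the start) included 7 of the 12 genes higher in LPS-Heroin. All 7 held the letters GGGCGG, the core of the GC box, on either strand. Among the 39 it was 53.8%, among all tested genes with a promoter 62.5%, and among all 33469 promoters 33.1%. TATAAA was found in 0 of the 39, against 6.60% of the tested genes, and TGACGTCA, the cyclic AMP response element, in 0 against 3.08%. CACGTG, an E-box, was in 5.13% of the 39 and 9.26% of the tested genes. The 7 genes were picked by their values, so these shares are a description with no test, and the matches name no binding site. In the sequences below, each GGGCGG or its reverse complement is in capitals. They are the 250 bases before the start, 5′ to 3′, of the 3 higher genes with the smallest p that had an entry. They lie at GRCr8 chr13:106252966-106253215 (plus strand) for Kcnh1, chr1:213555862-213556111 (minus strand) for Kcnk4 and chr3:135195411-135195660 (minus strand) for Kcnip3.
Kcnh1: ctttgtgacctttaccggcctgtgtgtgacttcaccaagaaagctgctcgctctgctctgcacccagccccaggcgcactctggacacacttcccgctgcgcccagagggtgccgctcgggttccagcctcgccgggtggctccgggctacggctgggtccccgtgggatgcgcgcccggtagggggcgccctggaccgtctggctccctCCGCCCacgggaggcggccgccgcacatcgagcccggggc
Kcnk4: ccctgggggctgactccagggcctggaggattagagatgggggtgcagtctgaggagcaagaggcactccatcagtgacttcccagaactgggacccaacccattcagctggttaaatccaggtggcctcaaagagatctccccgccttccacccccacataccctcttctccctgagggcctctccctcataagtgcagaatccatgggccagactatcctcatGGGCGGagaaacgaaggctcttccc
Kcnip3: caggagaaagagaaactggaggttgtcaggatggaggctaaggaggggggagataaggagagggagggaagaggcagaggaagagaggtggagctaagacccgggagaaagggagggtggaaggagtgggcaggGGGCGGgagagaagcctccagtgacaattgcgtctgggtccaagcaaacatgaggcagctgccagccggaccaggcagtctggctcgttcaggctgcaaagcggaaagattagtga
The match began 40 bases before the start in Kcnh1, 25 in Kcnk4 and 116 in Kcnip3. The share of G and C was 71.6% in Kcnh1 and 58.4% in each of the others.

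LPS alone gave fewer calls. Compared to Saline-Saline, LPS-Saline had 4 members higher and 1 lower (7.94% of 63), against 2.38% of all genes (1.21% higher and 1.17% lower). The higher genes were the EAG gene Kcnh1, the ERG gene Kcnh7, the silent subunit Kcnv1 and the axonal Kcna2, and the lower gene was Kcne2. The median of the 63 members was 0.11 on the log2 scale (0.01 over all genes tested), and 45 were above 0. With any fold, 10 members had an unadjusted p of at most 0.05, against 6.65% of all genes.

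Kcnh1 was at 13.5, 12.7, 12.4 and 12.1 FPKM in LPS-Saline, above each of the 4 Saline-Saline rats, with a log2 fold change of 0.39 (SE 0.09; limma, adjusted p = 0.657). Kcnh7 was at 3.17, 2.55, 2.09 and 2.51 FPKM and also did not overlap the controls (log2 fold change 0.70, SE 0.24; limma, adjusted p = 0.707). Kcnv1 was at 14.8 ± 2.1 FPKM against 11.1 ± 1.9 FPKM (SD, n = 4), and its groups overlapped (log2 fold change 0.42, SE 0.14; limma, adjusted p = 0.707). Kcna2 was at 9.34 ± 1.9 FPKM in LPS-Saline and 6.82 ± 1.1 FPKM in Saline-Saline (SD, n = 4), with overlapping groups and a log2 fold change of 0.44 (SE 0.16; limma, adjusted p = 0.722). Its highest value was in replicate 3, whose cortical sum of 135 FPKM was the lowest of the group. Kcne2 was at 1.15, 1.69, 0.450 and 0.508 FPKM, a wide scatter below most controls (log2 fold change -1.08, SE 0.39; limma, adjusted p = 0.720). The call of Kcne2 was lost without Saline-Saline replicate 1, LPS-Saline replicate 3 or LPS-Saline replicate 4. Kcnf1 and Kcnma1, called in neither direction, had non-overlapping groups with log2 fold changes of 0.34 each. With Kcnh1 and Kcnh7 this made 4 members without overlap, 6.35% of 63 against 4.12% of all genes.

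These calls were sensitive to single rats. Here and below, counts with 1 library left out are given without the share of all genes in the same fit. They show how far the calls moved and are no result about the channel genes. The count of members fell to 2 without LPS-Saline replicate 1 and to 3 without Saline-Saline replicate 1, and rose to 9 without LPS-Saline replicate 3 or without Saline-Saline replicate 4. Cortical sums were 135 to 446 FPKM in LPS-Saline and none of the 9 markers was called, with a median log2 fold change of 0.57, and 1 of the 5 channel genes, Kcnh7, remained among the 4 called without the low-cortex libraries, against 2.94% of all genes. In that fit cortical sums were 429 to 446 FPKM in LPS-Saline and 326 and 328 FPKM in the 2 remaining controls. No marker of the other lists was called in this comparison.

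Heroin injections alone gave 2 higher and 1 lower member (4.76%), against 3.16% of all genes (1.42% higher and 1.73% lower), a share close to the background. With any fold, 6 members (9.52%) had an unadjusted p of at most 0.05, against 6.65% of all genes. Kcnh1 was at 12.8, 10.2, 14.5 and 14.8 FPKM, higher than Saline-Saline by 0.43 (SE 0.13; limma, adjusted p = 0.744). Kcnh3 was at 27.2, 16.2, 24.3 and 25.7 FPKM, higher by 0.49 on the log2 scale (SE 0.20; limma, adjusted p = 0.744). In both genes the low rat was Saline-Heroin replicate 2, whose cortical sum was 190 FPKM. Kcnrg was lower, at 2.56, 1.70, 1.39 and 1.11 FPKM against 2.54, 2.86, 2.58 and 2.03 FPKM (log2 fold change -0.59, SE 0.25; limma, adjusted p = 0.744). None of the 63 members had groups that did not overlap, against 3.41% of all genes. The count was 0 when Saline-Saline replicate 1 or Saline-Heroin replicate 3 was left out, and 10 when replicate 2 of the Saline-Heroin group was. The share of all genes in these fits is not given beside these counts. Without the libraries of low cortical sum 6 members were called (4.20% of all genes), with Kcnh1 and Kcnh3 remaining and Kcnrg lost. In that fit cortical sums were 389 to 516 FPKM in Saline-Heroin and 326 and 328 FPKM in the 2 remaining controls. Cortical sums were 190 to 516 FPKM in Saline-Heroin, with none of the 9 cortical markers called and a median log2 fold change of 0.60. Of the other lists, 2 markers of septum and ventral forebrain were called lower, as was 1 each of oligodendrocytes, microglia, and endothelium and mural cells. Kcnh1 kept its call in 5 and Kcnh3 and Kcnrg in 2 of the 8 fits without 1 library.

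Kcnh1 was the only member called in all 3 comparisons with Saline-Saline. Its log2 fold changes were 0.39 with LPS, 0.43 with heroin and 0.66 with both. For Kcnh3 the corresponding values were 0.23, 0.49 and 0.64, and for Kcnv1 0.42, 0.32 and 0.61. Kcnip3 had values of 0.39, 0.29 and 0.55 and Kcnk4 of 0.33, 0.33 and 0.66. The interaction of LPS and heroin, the effect of both less the sum of each, was -0.16 for Kcnh1 (95% interval -0.51 to 0.18), -0.08 for Kcnh3 (-0.70 to 0.53) and -0.13 for Kcnv1 (-0.62 to 0.35). It was called in 2 members, Kcne2 (1.20, SE 0.55) and Kcng3 (-0.81, SE 0.38), each with adjusted p = 0.993 by limma, where 2.35% of all genes were called. With any fold the share of all genes was 4.05%, and the same 2 members passed. The interaction count was 0 to 3 when 1 library was left out: 0 without Saline-Saline replicate 2 or 4, LPS-Saline replicate 3, Saline-Heroin replicate 3 or LPS-Heroin replicate 1, and 1 in 8 other fits. Without the libraries of low cortical sum neither gene was called, and 3.03% of all genes were.

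The effect of heroin in rats with an LPS history was read from LPS-Heroin against LPS-Saline. Here 1 member was higher and 2 were lower (4.76%, against 2.28% of all genes, 1.12% higher and 1.16% lower). With any fold 4 members passed, against 4.58% of all genes. Kcnh3 was higher by 0.41 (SE 0.18; limma, adjusted p = 0.976), its LPS-Saline rats lying at 19.3, 21.0, 12.8 and 25.5 FPKM. This call of Kcnh3 was kept in 1 of the 8 fits without 1 library, that without LPS-Saline replicate 4, and the log2 fold change ran from 0.22 to 0.55. The silent subunits Kcng3 and Kcng4 were lower. Kcng3 read 3.17, 2.26, 4.49 and 2.20 FPKM in LPS-Saline and 1.77, 2.41, 0.940 and 1.60 FPKM in LPS-Heroin (log2 fold change -0.82, SE 0.32; limma, adjusted p = 0.976). Kcng4 changed from 2.40 ± 0.25 to 1.67 ± 0.42 FPKM (SD, n = 4; log2 fold change -0.52, SE 0.20; limma, adjusted p = 0.976). Groups overlapped in all 3 genes, and Kcng3 and Kcng4 kept their calls in 4 and 3 of the 8 fits without 1 library. The single member without overlap, Kcnmb2, a partner of the large-conductance channel, was not called (log2 fold change -0.47), and 2.59% of all genes did not overlap. No member was called without LPS-Saline replicate 3, 1 was called without LPS-Heroin replicate 2 or replicate 3, and 5 without LPS-Saline replicate 2. Without the libraries of low cortical sum no member was called either, against 1.95% of all genes. No cortical marker was called (median 0.55 on the log2 scale), and 1 marker of septum and ventral forebrain and 2 of microglia were called lower.

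In LPS-Heroin against Saline-Heroin, which asks what an LPS history added to heroin, 1 member was higher (1.59%, against 2.16% of all genes, 1.18% higher and 0.979% lower). With any fold 2 members passed, against 4.19% of all genes. The gene called was Kcns1, at 1.69, 0.463, 1.13 and 1.30 FPKM in Saline-Heroin and 2.53, 2.05, 5.18 and 1.46 FPKM in LPS-Heroin, with a log2 fold change of 1.19 (SE 0.45; limma, adjusted p = 1.00). It rested on 12 to 197 reads per library over all 24 libraries. No member was without overlap, against 2.37% of all genes. No member was called without LPS-Heroin replicate 3, without Saline-Heroin replicate 2 or without the libraries of low cortical sum. Kcns1 also lost its call without LPS-Heroin replicate 1, and kept it in 5 of the 8 fits that left out 1 library. Of the markers, 1 each of cortical neurons, oligodendrocytes, and endothelium and mural cells was called higher and 1 of septum and ventral forebrain lower, with medians of 0.42 for the cortical and -0.42 for the septal list on the log2 scale. The count was 2 when Saline-Heroin replicate 3 was left out and 7 when replicate 1 of that group was.

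Heroin self-administration gave 6 higher and 2 lower members compared to Saline-SA, 8 of 63 or 12.7%, against 5.42% of all genes (3.05% higher and 2.37% lower). Among the higher genes were the axonal channel gene Kcna2, the ERG gene Kcnh7, the large-conductance channel gene Kcnma1 and the silent subunits Kcns1 and Kcns2. Lower were Kcne2 and Kcnn4, the intermediate-conductance calcium-activated channel gene. The median log2 fold change of the members was 0.11 (0.01 over all genes tested), and 43 of 63 were above 0. With any fold 12 members had an unadjusted p of at most 0.05, against 11.5% of all genes. Values did not overlap in 3 members, Kcne2, Kcna6 and Kcnk15 (4.76%, against 6.76% of all genes). Kcnk15 passed the limit of 0.5 FPKM only through Saline-SA replicate 4, at 10.1 FPKM. The other Saline-SA rats were at 0.315 to 0.489 FPKM, so its lack of overlap is not independent of the filter.

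Kcne2 had the smallest p and was the one called gene whose groups did not overlap. It read 2.93, 2.87, 2.55 and 3.44 FPKM in Saline-SA and 1.27, 1.81, 1.82 and 1.16 FPKM in Heroin-SA, a log2 fold change of -0.93 (SE 0.20, 95% interval -1.39 to -0.48; limma, adjusted p = 0.272). Choroid plexus markers were near 0 in both groups, at a summed 1.84 to 3.47 FPKM in Saline-SA and 0.880 to 3.32 FPKM in Heroin-SA. Kcnn4 was at 0.687, 1.03, 0.900 and 1.91 FPKM in Saline-SA and 0.697, 0.316, 0.306 and 0.396 FPKM in Heroin-SA, with 8 to 63 reads per library over all 24 libraries (log2 fold change -1.19, SE 0.38; limma, adjusted p = 0.354). Kcnn4 passed the limit of 0.5 FPKM, at a mean of 0.571 FPKM, only with its Saline-SA values. The injection libraries averaged 0.467 FPKM, so its lower call is not independent of the filter. Kcne2 and Kcnn4 kept their call in each of the 8 fits that left out 1 library. Kcns2 kept its call in 7 of the 8 fits, Kcns1 in 6, and Kcnh7, Kcna2 and Kcnma1 in 3 each.

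Kcns2 was at 5.00, 5.48, 4.16 and 2.86 FPKM in Saline-SA and 6.82, 7.93, 4.94 and 8.01 FPKM in Heroin-SA, a log2 fold change of 0.67 (SE 0.23; limma, adjusted p = 0.360). Kcns1 read 0.749, 1.32, 0.648 and 0.295 FPKM against 1.99, 1.74, 2.37 and 0.937 FPKM (log2 fold change 1.20, SE 0.43; limma, adjusted p = 0.371). In each gene 1 Heroin-SA rat lay within the Saline-SA range. Kcnh7 was at 0.765 ± 0.35 and 1.48 ± 0.40 FPKM (SD, n = 4; log2 fold change 0.94, SE 0.36; limma, adjusted p = 0.399).

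The higher values of Kcna2 and Kcnma1 came mostly from the same 2 Heroin-SA rats. Kcna2 was at 1.49, 1.97, 1.56 and 1.57 FPKM in Saline-SA and at 2.46, 4.12, 1.63 and 6.20 FPKM in Heroin-SA (log2 fold change 0.92, SE 0.37; limma, adjusted p = 0.402). Replicates 2 and 4 were the highest of the Heroin-SA rats and the other 2 lay near or within the Saline-SA range. Kcnma1, with the same high rats, read 5.97, 8.24, 5.78 and 8.68 FPKM in Heroin-SA against 5.37 ± 0.63 FPKM in Saline-SA (SD, n = 4; log2 fold change 0.39, SE 0.16; limma, adjusted p = 0.411). Kcnq3, an M-current channel gene, had the same high rats, at 4.06, 7.14, 4.51 and 9.35 FPKM, but was not called. Heroin-SA replicate 4 also had the lowest cortical sum of all 24 libraries, 63.3 FPKM, whereas that of replicate 2 was 372 FPKM.

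**Figure D5:**
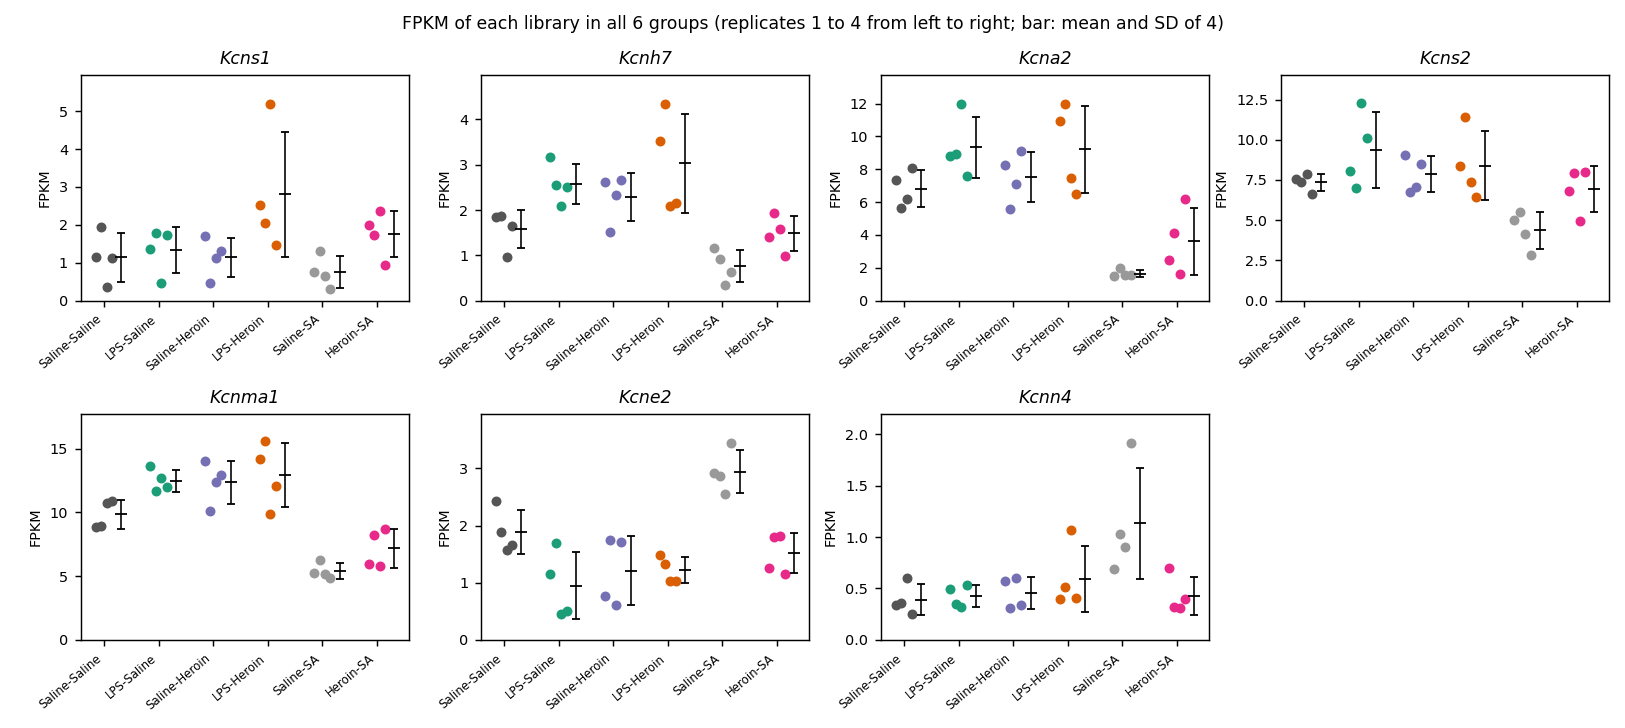
FPKM of each library (points, replicates 1 to 4 from left to right) with the mean and SD of 4 (black bar) in all 6 groups, for 7 genes called in Heroin-SA against Saline-SA, ordered by log2 fold change. Kcne2 is the gene without overlap between Saline-SA (2.55 to 3.44 FPKM) and Heroin-SA (1.16 to 1.82 FPKM), and Kcna2 and Kcnma1 are lower in the SA groups than in most injected rats.

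The SA count fell to 3 without Heroin-SA replicate 2, to 4 without Saline-SA replicate 3 and to 5 without Saline-SA replicate 4, and rose to 13 without Saline-SA replicate 2. Cortical sums were 74.2 to 297 FPKM in Saline-SA and 63.3 to 464 FPKM in Heroin-SA, and none of the 9 markers was called. Of the other lists, 2 interneuron markers and 1 of septum and ventral forebrain were lower and 1 of astrocytes was higher. Without Saline-SA replicate 3 and Heroin-SA replicate 4, the libraries of low cortical sum, 7 members were called, against 4.37% of all genes. Kcne2, Kcnn4, Kcns1 and Kcnh7 remained of the 8, while Kcnip3, Kcnk1 and Kcnv1 were added. Cortical sums did not overlap in that fit, at 236 to 297 FPKM in Saline-SA and 372 to 464 FPKM in Heroin-SA.

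Whether self-administered and injected heroin differed was tested as the Heroin-SA effect less the Saline-Heroin effect. It was called in 3 members (4.76%, against 4.37% of all genes). With any fold the same 3 passed, against 6.55% of all genes. Kcna6, the highest Kcna gene, averaged 26.6 ± 3.9 FPKM with injected heroin and 32.3 ± 3.8 FPKM in its controls, and 27.4 ± 0.89 FPKM with self-administered heroin and 23.9 ± 2.3 FPKM in its controls (SD, n = 4), a difference of effects of 0.49 on the log2 scale (SE 0.15; limma, adjusted p = 0.690). The difference was -1.38 for Kcnn4 (SE 0.53; limma, adjusted p = 0.721) and 0.58 for Kcns2 (SE 0.27; limma, adjusted p = 0.760). Kcnn4 passed the limit on mean FPKM only with its Saline-SA values, which enter this difference. For Kcna2 the difference was 0.79 with a 95% interval of -0.11 to 1.70, and for Kcnh1 -0.11 (-0.53 to 0.30). Kcna6 and Kcnn4 kept their calls in each of the 16 fits without 1 library and without the libraries of low cortical sum, where 4 members were called (against 3.82% of all genes), and Kcns2 in 6 of the 16. Of the marker lists, 3 endothelial and mural markers and 1 microglial marker were called higher and 1 astrocyte marker lower in this difference. The count rose to 5 without Saline-Heroin replicate 4 or Heroin-SA replicate 3. The experiments differ in surgery, handling, time of killing, and the dose and days of heroin. In addition, SA rats were housed alone on a reversed light cycle and injected rats in pairs on a normal one. None of these differences can be told apart from the route of heroin.

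The levels of several members set the experiments apart regardless of heroin. Kcnk9, a leak channel gene, was at 6.42 to 12.7 FPKM in the 16 injection libraries and 1.22 to 5.77 FPKM in the 8 SA libraries. Kcnma1 was likewise lower in SA, at 4.84 to 8.68 FPKM against 8.86 to 15.6 FPKM. Kcna2 averaged 8.22 FPKM in injected and 2.63 FPKM in SA rats, with a small overlap. Kcnh5, an EAG gene, was at 0.788 to 2.82 FPKM in injected and 0.0780 to 1.01 FPKM in SA rats. In the other direction, Kcnd1 was at 7.74 to 9.50 FPKM in SA and 4.07 to 6.08 FPKM in injected rats, Kcnk2 at 26.4 to 34.7 against 15.6 to 25.0 FPKM and Kcnt1 at 43.4 to 54.7 against 27.9 to 39.5 FPKM. Kcnk9 overlaps Trappc9 on its own strand, so its level is uncertain. These 5 members without overlap, 2 lower and 3 higher in SA, make up 3.17% and 4.76% of the 63, against 4.07% and 3.12% of all genes, so such separation was about as common among the channel genes as in the table as a whole.

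The same held for the saline controls alone. Between Saline-SA and Saline-Saline, 10 members were lower without overlap (15.9%, and 15.9% of all genes) and 8 were higher (12.7%, against 12.4%). The order of the groups for Kcna2 ran from LPS-Saline (9.34 ± 1.9 FPKM, SD, n = 4) and LPS-Heroin (9.21 ± 2.7) through Saline-Heroin (7.52 ± 1.5) and Saline-Saline (6.82 ± 1.1) to Heroin-SA (3.60 ± 2.0) and Saline-SA (1.65 ± 0.22). The ranges of neighbours in this order overlapped at every step.

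Genes of proteins that associate with these channels were read in the same comparisons. Of 19 tested partner genes (calmodulins, Dpp6, Dpp10, Lgi, Adam22 and others), 1 was called in LPS-Heroin against Saline-Saline, where 5.46% of all genes were. Lingo1, a partner of calcium-activated channels, was higher by 0.63 (SE 0.13; limma, adjusted p = 0.185). In Heroin-SA against Saline-SA, 1 partner was called higher and 1 lower, where 5.42% of all genes were called. Partner calls were not refitted with libraries left out. Adam22, a receptor of the Lgi proteins on axons, was higher in Heroin-SA by 0.41 (SE 0.14; limma, adjusted p = 0.355). Lgi3, which joins Kcna channel complexes, was lower there, by a log2 fold change of -0.38 (SE 0.08; limma, adjusted p = 0.272). No partner was called in LPS-Saline or Saline-Heroin against Saline-Saline. The median partner moved by 0.12 in LPS-Heroin against Saline-Saline and 0.07 in Heroin-SA against Saline-SA, where the channel genes had 0.13 and 0.11.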

How the data were processed

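RNA of the NAc of 24 rats was sequenced as poly-A selected, strand-marked (dUTP) libraries. The authors trimmed reads with fastp, aligned them to rn6 with HISAT2, counted them per gene with featureCounts (versions not given in the sources used here) and deposited FPKM per gene and library. Each value was a whole number of reads to a tolerance of 0.01 in 100% of cases once depth and gene length were taken out, which gave 12312878 to 18850240 reads per library. No sample column was left unmapped, and no authors' comparison columns were used. Since the deposited unit is FPKM, limma 3.58.1 (R 4.3.3, trend) was fitted to log2(FPKM + 0.1) over all 15118 genes with a mean of at least 0.5 FPKM, on the 8 libraries compared, or 16 for differences of effects, with Benjamini-Hochberg adjustment over all of them. A gene was called at an unadjusted p of at most 0.05 and at least 1.3-fold. The script was also run on simulated reads, with changes larger than most of those reported here and an assumed spread. That run therefore does not bear on whether the reported calls are right. Tables and plots used Python 3.11.15, numpy 2.4.6, pandas 2.3.3 and matplotlib 3.10.9.

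The members, marker lists and partner list were chosen with earlier results of these data known. Named genes were every member called, the highest member of each family, Kcnk12, Kcnh2, Kcnh3 and Kcnh8, which the study names, and the 3 members on each side of the mean of 0.5 FPKM. Kcnk1, Kcnt1, Kcnb2, Kcnq3, Kcnmb2, Kcnk9, Kcnd1, Kcnk2, Kcnh5, Kcnip2 and the untested genes were added after their values were seen. Some members are counted but not reported by name here. Alternatives were other pseudocounts (1 and 0.01), filters and scalings, all 24 libraries in 1 fit, limma-voom on the recovered reads, a replicate block, each library left out and, chosen after seeing the data, the 6 libraries of low cortical marker sum left out. The labels call the 4 libraries of a group biological replicates. Promoters came from RefSeq on GRCr8 and were matched by symbol. Kcna3 and Kcnd2 were not analysed here.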

Additional observations from a re-analysis of the deposited data

Results flagged for a closer look

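Of 228 groups of 4 libraries, from 38 named genes, 19 held a library that stood far from the other 3 by Dixon's test, where chance flags about 5%. None of these values was left out. In Saline-SA, replicate 4 was at 10.1 FPKM for the leak channel gene Kcnk15 (others 0.315 to 0.489), at 25.1 for Kcnip1 (14.7 to 15.5) and at 20.4 for Kcna6 (24.9 to 25.3). Saline-SA replicate 2 was at 1.97 FPKM for Kcna2 (1.49 to 1.57) and replicate 3 at 0.887 for Kcnk12 (2.96 to 3.13).

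Heroin-SA replicate 4, the library with the lowest cortical marker sum, stood apart in 4 genes. It was at 7.97 FPKM for Kcnk4 (others 14.9 to 16.1), at 34.3 for Kcnmb4 (68.4 to 70.9), at 1.27 for Kcnk12 (3.69 to 4.10) and at 26.1 for Kcna6 (27.8 to 27.9).

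In the injection experiment, Saline-Saline replicate 1, which carried choroid plexus markers, was at 2.31 FPKM for Kcnk16 (others 0.0600 to 0.428). Saline-Saline replicate 3 was at 2.33 for Kcnt2 (3.91 to 4.23), and replicate 4 was at 11.0 for Kcne5 (6.42 to 6.75) and 1.48 for Kcng4 (2.34 to 2.49). LPS-Saline replicate 1 was at 0.436 for Kcnh8 (0.330 to 0.333). Saline-Heroin replicate 3 was at 0.828 for Kcnk16 (0.108 to 0.162), and replicate 4 was at 9.68 for Kcnd3 (13.0 to 13.3) and 0.479 for Kcnk15 (0.0787 to 0.139). LPS-Heroin replicate 3 was at 11.4 for Kcng1 (18.4 to 19.7) and 1.07 for Kcnn4 (0.398 to 0.511).

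A test of the difference between effects made 5 calls at the unadjusted level, none with an adjusted p under 0.05 by limma. For the interaction 3.17% of the members were called, against 2.35% of all genes. For the difference of heroin effects it was 4.76% against 4.37%, so both shares were close to the background. The LPS by heroin interaction was 1.20 for Kcne2 and -0.81 for Kcng3 on the log2 scale, and these calls were kept in 7 and 5 of the 16 fits without 1 library. The Heroin-SA effect less the Saline-Heroin effect was 0.49 for Kcna6, 0.58 for Kcns2 and -1.38 for Kcnn4.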

How the results depend on the processing

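No member had an adjusted p under 0.05 in any of the 8 comparisons, so by that rule each count is 0 in place of 5, 3, 15, 3, 1, 8, 2 and 3. Without the limit of 1.3-fold, LPS-Saline and Saline-Heroin against Saline-Saline gave 10 and 6 members and LPS-Heroin against Saline-Heroin 2. Without the 6 libraries of low cortical marker sum the counts were 6 in Saline-Heroin and 7 in LPS-Heroin against Saline-Saline, 0 in LPS-Heroin against LPS-Saline, 0 against Saline-Heroin and 1 in the interaction. LPS-Heroin against LPS-Saline gave 5 with no filter on mean FPKM. LPS-Heroin against Saline-Heroin gave 2 with libraries scaled to equal medians and 2 with limma-voom on the recovered reads. Heroin-SA against Saline-SA gave 14 with all 24 libraries in 1 fit. The interaction gave 1 with a pseudocount of 1 or 0.01, a mean FPKM of at least 1, all 24 libraries in 1 fit, and limma-voom. Counts with other filters, scalings or fits are given without the share of all genes in the same fit, and the cause of these shifts was not tested.

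The counts of members in this paragraph have no share of all genes beside them. With 1 library left out, the counts ran from 2 to 9 in LPS-Saline, 0 to 10 in Saline-Heroin and 11 to 17 in LPS-Heroin against Saline-Saline. They ran from 0 to 5 in LPS-Heroin against LPS-Saline, 0 to 7 against Saline-Heroin, 3 to 13 in Heroin-SA against Saline-SA, 0 to 3 in the interaction and 2 to 5 in the Heroin-SA effect less the Saline-Heroin effect. Same-numbered libraries correlated between -0.15 and 0.15 in their deviations, and the main fits did not pair them. Such correlations cannot exclude a weak link between same-numbered rats. With the replicate block the counts were 7, 3 and 13 against Saline-Saline, 1 against LPS-Saline, 1 against Saline-Heroin, 8 in SA, 1 in the interaction and 2 in the difference of effects. Over the 40 called values, alternatives other than the adjusted p rule and leaving out 1 library kept the call in 421 of 478 cases. They lost it in 57 and reversed 0. Under the adjusted p rule 0 of the 40 calls were kept. The alternative without a fold limit could not lose a call, so the tally overstates how well the calls held. Leaving out 1 library kept 243 of 360. Precision at low genes such as Kcnn4 and Kcns1 is limited by their reads.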
